A study of Mus musculus with 2 samples.

Results

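Serum response factor, SRF, the coactivators of the myocardin family (Mrtfa, Mrtfb and Myocd) and the ternary complex factors, TCFs (Elk1, Elk3 and Elk4), were followed in RNA of newborn mouse cortex. The members were all probe sets that the array's annotation gives to exactly 1 of these 7 genes. They numbered 19 of 45101 probe sets on the array, or of 34945 probe sets naming 1 gene. Elk3 and Elk4 had 4 probe sets each, Mrtfb and Elk1 had 3, Srf and Myocd had 2, and Mrtfa had 1.

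The study compared 2 pools of cortical RNA, each from 3 mice and each read on 1 Affymetrix expression array. Per the labels, the control pool was MRTFA-/-;MRTF-BFlox/Flox, that is, null for Mrtfa with floxed and intact Mrtfb. The double knockout pool was MRTF-A-/-;MRTF-BF/F;GFAP-Cre, in which Cre recombinase under a GFAP promoter deletes floxed Mrtfb. They are called the control pool and the GFAP-Cre pool here, after these labels. The Mrtfa null alleles were shared by both pools, so as labelled they differ in the Cre transgene and the loss of Mrtfb that it brings. Both pools are labelled postnatal day 0, although the description of the double knockout sample gives day 1. A GFAP promoter is active in radial glia and astrocytes, so cells outside those lineages would keep Mrtfb. Pooling hides the spread between animals, and with 1 array per group no test could be made and no p-value is given.

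SRF is a MADS-box transcription factor that binds the CArG box, a short A- and T-rich element. It works with 2 kinds of partner that compete for it. The myocardin-related factors MRTF-A and MRTF-B bind monomeric actin through their RPEL motifs, move to the nucleus when actin polymerises and switch on cytoskeletal genes. The TCFs are ETS-domain proteins that sit beside SRF on DNA and are phosphorylated by ERK, which switches on immediate early genes. In the developing brain SRF and the MRTFs are known for roles in neuronal migration and neurite outgrowth.

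The promoter of Srf is shown because SRF is known to act on its own gene and because both Srf probe sets read lower in the GFAP-Cre pool. A link between this promoter and those readings was not tested. RefSeq promoter windows of 300 bases, running from 250 before to 50 after a transcription start (mouse build GRCm38.p6), were held for 6 of the 7 members and were searched on both strands for the exact consensus CArG box and for CCGGAA, an ETS core of the kind TCFs bind. The Srf window held 2 CArG boxes, starting 82 and 62 bases before the start site, and 1 CCGGAA starting 122 bases before it, with no overlap between them. No other member's window held a CArG box. Mrtfb and Elk4 also had CCGGAA in some of their windows but not in all. Counted by gene, 3 of the 6 members held CCGGAA in at least 1 window. The same was so for 16.7% of all 27025 genes with a window and 29.7% of the measured ones. Of all 32851 windows 1.63% held at least 1 CArG box, 0.0183% held 2 or more, and 14.9% held CCGGAA on either strand. A match is a run of letters and not a shown binding site. The 250 bases before the Srf start, at chr17:46556163-46556412 on the minus strand of GRCm38.p6, follow with the CArG boxes and CCGGAA in capitals.
Srf: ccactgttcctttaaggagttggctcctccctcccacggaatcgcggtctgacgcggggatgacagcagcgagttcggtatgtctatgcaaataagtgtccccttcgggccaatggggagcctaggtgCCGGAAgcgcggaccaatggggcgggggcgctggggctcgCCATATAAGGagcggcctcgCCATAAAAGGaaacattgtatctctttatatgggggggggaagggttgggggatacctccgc

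Values are MAS5 signals on a linear scale in arbitrary units, with the array of the GFAP-Cre pool shifted by 0.0037 on the log2 scale so that the median difference was 0 over all non-control probe sets, named or not, that were above the floor in both pools. A signal under a floor of 178.6, the median of all non-control signals, was treated as not measured and set to the floor before a difference was taken. Differences are log2 ratios of the GFAP-Cre pool over the control pool. Of the 19 member probe sets 9 reached the floor on both arrays, 2 on 1 array and 8 on neither. The member signals thus lay mostly in the dim range, where differences between the arrays scattered more. All probe sets that reached the floor on both arrays were split by mean signal into 3 ranges of equal size. The SD of the difference was 0.24 in the dim range, 0.19 in the middle range and 0.14 in the bright range. Signals of different probe sets cannot be ranked against each other, since each set of probes binds with its own strength.

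**Figure D1:**
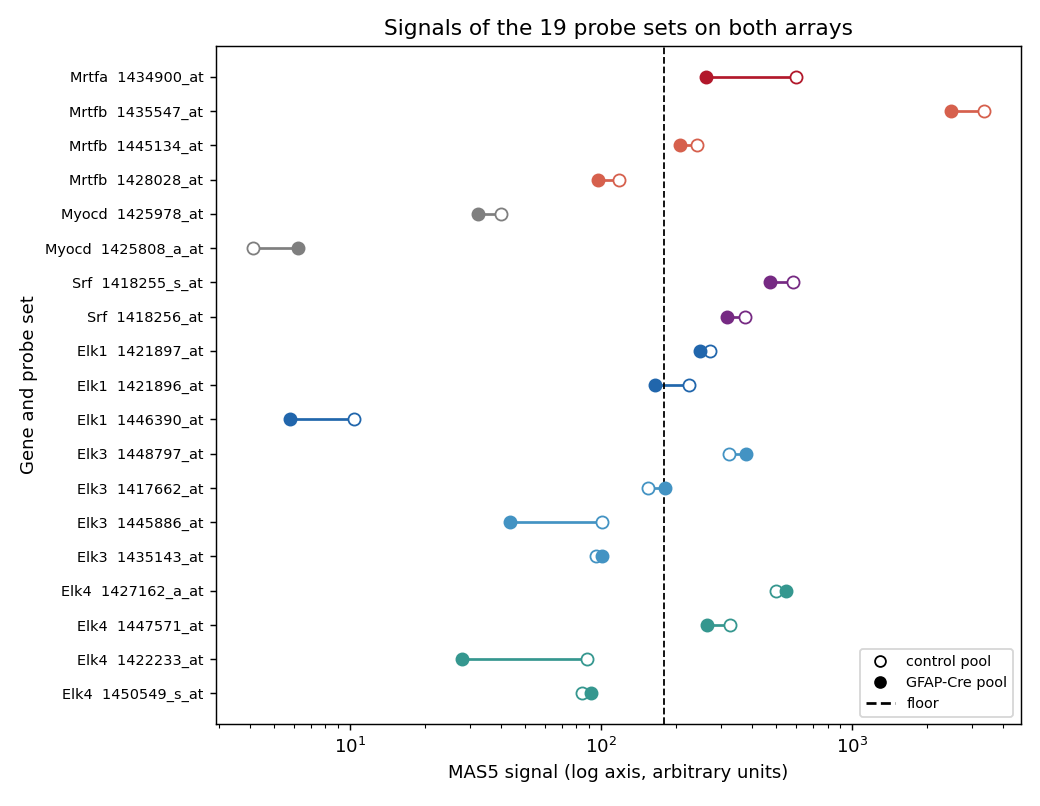
MAS5 signal (log axis, arbitrary units) of each of the 19 member probe sets in the control pool (open circles) and the GFAP-Cre pool (filled circles, centred), with the floor of 178.6 as a dashed line. The probe sets of Mrtfa, Mrtfb, Srf and Elk1 all have the filled circle to the left, while those of Myocd, Elk3 and Elk4 go both ways. Of the probe sets 8 lie wholly under the floor.

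Mrtfa, labelled null in both pools, had the widest gap of the measured members. Its only probe set, 1434900_at, read 601.6 in the control pool and 261.7 in the GFAP-Cre pool. Both readings were above the floor, and the second was 43.5% of the first, a difference of -1.20 log2 or 2.30-fold lower. Of the 18877 probe sets measured on both arrays 3 had a difference this low or lower, Mrtfa included. Within the dim range, 2 of 6292 were this low or lower. A signal above the floor does not by itself go against a null label, because a disrupted gene can still be transcribed. No source used here says whether this probe set lies in the deleted part of the gene, so the reading does not check the label. The signal nevertheless differed between pools whose labels give Mrtfa as the same. In pooled tissue RNA, fewer cells of a type and less RNA per cell cannot be told apart for any value given here.

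Mrtfb, the floxed gene, was lower in the GFAP-Cre pool on both of its measured probe sets. The brightest, 1435547_at, read 3359 in the control pool and 2475 in the GFAP-Cre pool, which is 73.7% of the control reading and a difference of -0.44. Among the 6293 probe sets of the bright range 45 were this low or lower. A reading of 73.7% leaves most of the Mrtfb signal in place in the tissue. The second probe set, 1445134_at, read 240.9 and 206.3, a difference of -0.22, and 20.9% of the dim range lay below it. The last, 1428028_at, was not measured, with readings of 118.3 and 97.8 under the floor. Of all under-floor probe sets 64.0% read lower in the GFAP-Cre pool, and 61.6% differed by at least as much as this one. Over the 2 measured probe sets the mean difference was -0.33 ± 0.15 (SD), an SD that covers the spread between probe sets and none between animals. Only the brightest stood outside the scatter of probe sets of like signal. Their position relative to the floxed segment was likewise not known here.

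Myocd, the founding member of the coactivator family and a driver of smooth and cardiac muscle genes, was under the floor on both arrays. Probe set 1425978_at read 40.2 in the control pool and 32.3 in the GFAP-Cre pool, and 1425808_a_at read 4.1 and 6.2. Their readings went opposite ways. No difference is given for Myocd, since 56.9% and 34.4% of all under-floor probe sets differed between the arrays by at least as much. Of 10 markers of smooth muscle and pericytes 7 were measured, among them Acta2, which read 1061 in the control pool, and 3 (Myh11, Cnn1 and Tagln) were under the floor. Markers of skeletal and cardiac muscle were measured in 1 of 8 cases.

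Srf was lower on both of its probe sets. The first, 1418255_s_at, read 582.3 in the control pool and 469.9 in the GFAP-Cre pool, a difference of -0.31, or 1.24-fold lower. The second, 1418256_at, read 375.2 and 317.6, a difference of -0.24. Their mean was -0.28 ± 0.05 (SD, 2 probe sets). The suffix _s_at of the first marks possible cross-hybridisation, and without it Srf was at -0.24. The probe sets of Srf were close to each other, yet each lay inside the scatter of its own brightness range. In the middle range 9.36% of probe sets differed by at least as much as the first in either direction, and in the dim range 28.2% by at least as much as the second. Both were designed on the same source sequence, so they are not independent readings of the gene.

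The TCFs went in different directions. Elk1, a TCF that carries a strong ERK-responsive activation domain, was lower. Its probe set 1421897_at read 271.2 in the control pool and 247.3 in the GFAP-Cre pool, a difference of -0.13. Probe set 1421896_at read 224.3 in the control pool and was under the floor at 164.2 in the other, at least 1.26-fold lower. Above the floor in the control pool alone, it had to be lower. The last Elk1 probe set, 1446390_at, was far under the floor at 10.4 and 5.8. The probe set measured on both arrays was unremarkable for its signal, since 53.4% of the dim range differed by at least as much.

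Elk3, also called Net, a TCF that can repress transcription until it is phosphorylated, was higher on the 1 probe set measured on both arrays. Probe set 1448797_at read 324.0 in the control pool and 379.5 in the GFAP-Cre pool, a difference of 0.23, and 30.4% of the dim range differed by at least as much. Probe set 1417662_at went from 154.6, under the floor, to 179.7, just above it, and so had to be higher. Both were designed on the same source sequence. Of the other two, 1435143_at read 95.9 and 101.3, and 1445886_at read 100.7 and 43.6. The latter 2 probe sets lay under the floor, where 13.8% of all probe sets differed by at least as much as 1445886_at.

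Elk4, also called SAP-1, was read in both directions. The brightest probe set, 1427162_a_at, read 497.3 in the control pool and 546.8 in the GFAP-Cre pool, a difference of 0.14. The next, 1447571_at, read 325.7 and 265.1, a difference of -0.30. The mean over these 2 probe sets was -0.08 ± 0.31 (SD), so no direction can be given for the gene. Under the floor, 1422233_at read 88.1 and 28.1, and 1450549_s_at read 84.5 and 91.7. These were designed on the same source sequence and also disagreed.

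**Figure D2:**
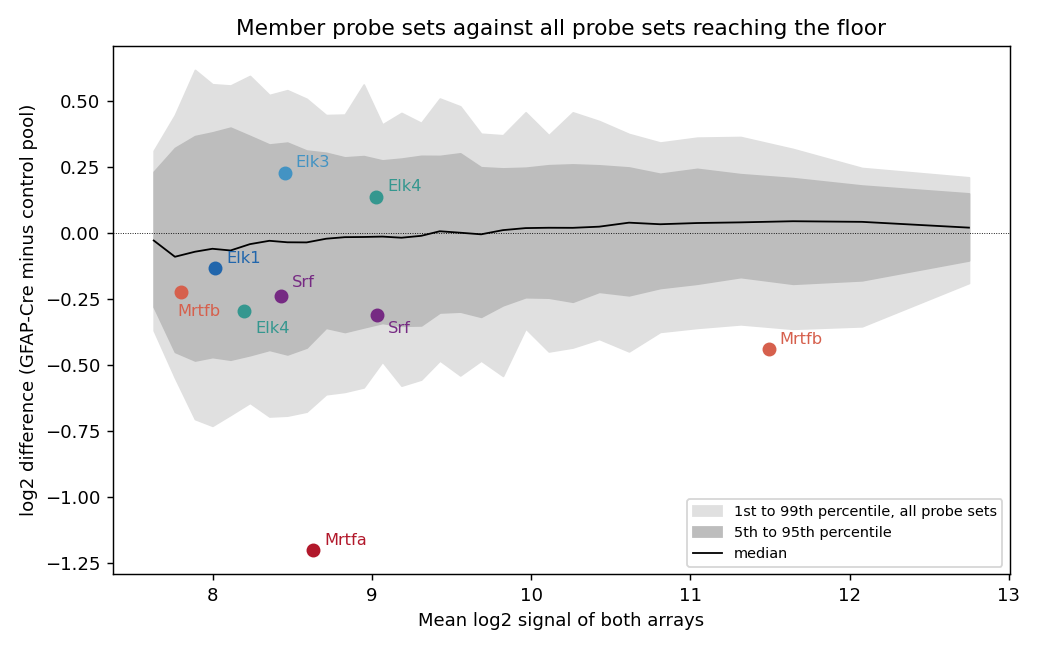
Difference in log2 signal (GFAP-Cre pool minus control pool) against the mean log2 signal of both arrays for the 9 member probe sets that reached the floor on both arrays, over percentile bands of all 18877 such probe sets in 30 bins of signal. Mrtfa at -1.20 and the brighter Mrtfb probe set at -0.44 lie below the 1st percentile, and the other 7 points lie inside the band from the 5th to the 95th percentile.

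Set side by side, the coactivators and the TCFs differed as follows. Of the 3 measured probe sets of Mrtfa and Mrtfb, 3 were lower. Of the 6 measured TCF probe sets 3 were lower and 3 higher. Among these, 1 lower and 1 higher probe set reached the floor on 1 array alone, which fixed their direction. Taking the brightest probe set of each gene, Mrtfa and Mrtfb had a median of -0.82 and Elk1, Elk3 and Elk4 a median of 0.14, against 0.01 over all 11636 measured genes. The TCF median was -0.08 when each gene was given the mean of its measured probe sets, so the TCFs as a group had no settled direction. The coactivator median is the midpoint of 2 unequal values, -1.20 and -0.44, and rests largely on the single probe set of Mrtfa. Over all members 8 of 11 measured probe sets were lower and 3 higher, where 50.6% of all 20244 measured probe sets were lower and 49.4% higher. At least 1.5-fold lower was 1 of the 11, Mrtfa, where 0.968% of all measured probe sets (196) were. At least 1.5-fold higher were 0 of the 11, where 0.415% (84) were. The 2 member probe sets that reached the floor on 1 array, both of TCFs, had to differ in a fixed direction to be counted. Over all measured probe sets, quantile normalization turned the 1.5-fold split of 196 lower and 84 higher into 141 lower and 119 higher. Loess centring turned it into 147 and 111.

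Genes around the members were drawn from lists of pathway genes, each valued by its brightest measured probe set. Over all measured genes 47.1% were lower by any amount and 52.9% higher, and 1.14% differed at least 1.5-fold in either direction.

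Partner or inhibitor proteins of the MRTFs and SRF had a median of 0.01 over 23 measured genes, 9 lower and 14 higher, and -0.01 after loess centring. Phactr4, which competes through its own RPEL motifs for monomeric actin, differed by -0.30, from 362.8 to 295.5. Yap1, a coactivator whose targets overlap with those of the MRTFs, differed by -0.29, and Ash2l, a subunit of histone methyltransferase complexes, by -0.22. Each of these rested on 1 probe set measured on both arrays. Scai, a direct inhibitor of MRTF-A, had a mean of -0.06 ± 0.09 (SD, 3 probe sets) although its brightest probe set differed by 0.01. None of the 23 passed 1.5-fold.

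The Ras-ERK pathway, which phosphorylates the TCFs, had a median of 0.02 over 17 measured genes, 7 lower and 10 higher, and of -0.02 after loess centring. Dusp4, a phosphatase of ERK, differed by -0.43, from 274.6 to 203.3. Spry4, a feedback inhibitor of the pathway, differed by -0.22. Grb2, the adaptor that links receptors to Ras activation, had 2 probe sets, of which the brighter differed by -0.22, and their mean was -0.08 ± 0.20 (SD). No gene of the list passed 1.5-fold.

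Partners and inhibitors of the TCFs were mostly higher by small amounts. Of 10 measured genes 9 were higher and 1, the histone deacetylase Hdac1, lower at -0.01, with a median of 0.14. Med24, a Mediator subunit, went from 820.0 to 992.0, a difference of 0.27. Id1, a member of the Id family that interferes with TCF binding to DNA, went from 470.9 to 553.9, a difference of 0.23. For Hdac2 the mean of 2 probe sets was 0.09 ± 0.15 (SD). The differences are small, none passed 1.5-fold, and the median was 0.07 without probe sets whose suffix marks possible cross-hybridisation. Med23, the Mediator subunit that Elk1 contacts, was higher by 0.11.

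**Figure D3:**
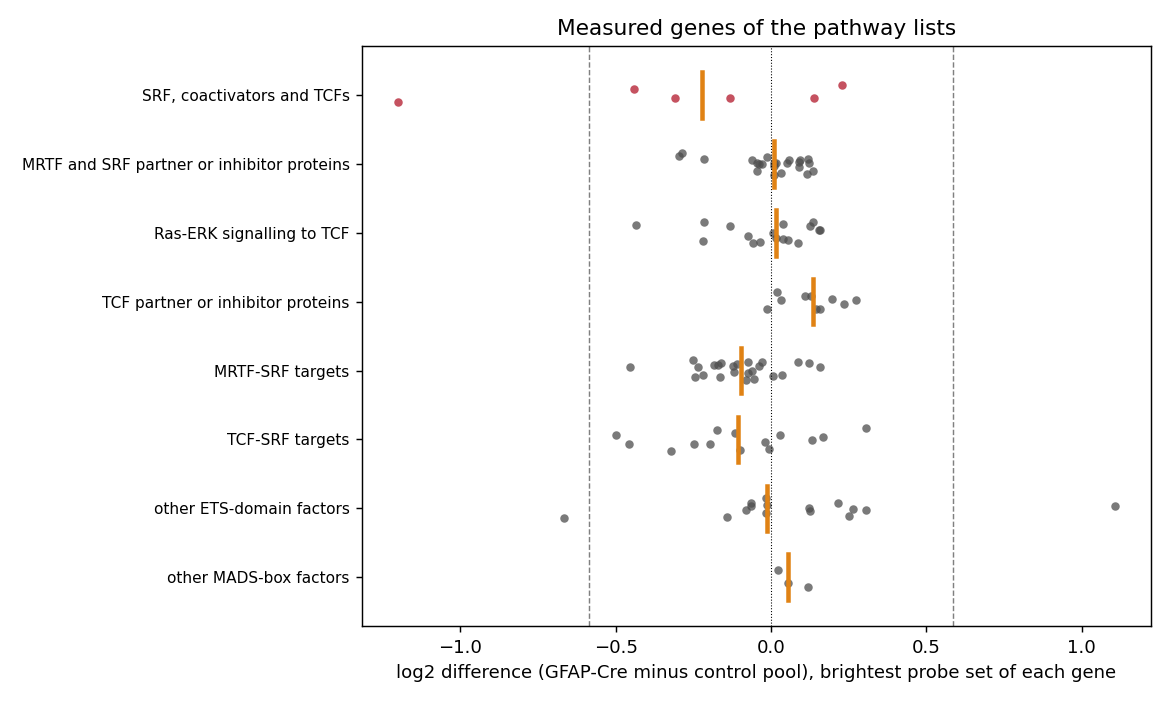
Difference in log2 signal (GFAP-Cre pool minus control pool) of the brightest measured probe set of each gene, by pathway list, with 6 measured members in red at the top, list medians as orange bars and 1.5-fold as dashed lines; vertical scatter within a row only separates points. The MRTF-SRF targets (median -0.10) and TCF-SRF targets (median -0.11) lie mostly left of 0 and the TCF partners (median 0.14) right of it, with nearly all points within 1.5-fold; genes above the floor in 1 pool alone are drawn at their bound.

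Targets of both branches were more often lower than higher in the GFAP-Cre pool, mostly by small amounts. Of 24 measured MRTF-SRF targets 19 were lower, with a median of -0.10, and of 12 TCF-SRF targets measured on both arrays 8 were lower, with a median of -0.11. Another 2 TCF-SRF targets, Arc and Egr2, reached the floor in the control pool alone and so had to be lower. Over all genes measured on both arrays 45.7% were lower, with a median of 0.02. No target passed 1.5-fold, and 6 of the 30 listed MRTF-SRF targets were under the floor. Among the former, Tgfb1i1, a focal adhesion protein, differed by -0.45, Acta1, skeletal actin, by -0.25, and Acta2, smooth muscle actin, by -0.24. Among the latter, the transcription factor Egr4 was at -0.50 and the AP-1 subunits Junb and Fos at -0.32 and 0.31.

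An exact CArG box stood in the promoter windows of 7 of the 25 MRTF-SRF targets that had a window (28.0%) and of 1 of 11 TCF-SRF targets (9.09%), where 1.81% of all 27025 genes with a window had one. The 6 measured MRTF-SRF targets with a CArG box were all lower, with a median of -0.12 and a range of -0.25 to -0.06. The 15 measured ones without it had 11 lower and 4 higher and a median of -0.07, with a range of -0.24 to 0.16. The ranges overlap. All measured genes with a CArG box in the window split into 75 lower and 68 higher around a median of -0.0023. A box outside these windows would not be counted. The 4 targets with the widest differences among those carrying the box are shown to let the element be compared with that of Srf, each as the 50 bases around the CArG box (in capitals), all before the start site, in build GRCm38.p6. Acta1 (chr8:123894819-123894868, minus strand) differed by -0.25, Actg1, cytoplasmic gamma-actin (chr11:120348556-120348605, minus strand), by -0.18, Lima1, an actin-bundling protein (chr15:99820167-99820216, minus strand), by -0.12, and Cnn2, calponin 2 (chr10:79988524-79988573, plus strand), by -0.12.
Acta1: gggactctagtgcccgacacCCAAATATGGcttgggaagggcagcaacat
Actg1: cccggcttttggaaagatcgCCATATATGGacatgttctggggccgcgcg
Lima1: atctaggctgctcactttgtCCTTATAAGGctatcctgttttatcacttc
Cnn2: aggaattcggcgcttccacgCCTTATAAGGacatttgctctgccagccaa

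Relatives of SRF and of the TCFs outside the pathway gave a view of the wider families. The MADS-box factors Mef2a, Mef2c and Mef2d differed by 0.12, 0.05 and 0.02 on their brightest probe sets, and the mean over the probe sets of Mef2a was -0.13 ± 0.23 (SD, 4 probe sets). Of the ETS factors 11 were measured on both arrays, 4 lower and 7 higher, with a median of 0.13. Another 4 reached the floor in the control pool alone and so had to be lower, and with them the median of all 15 was -0.01. After quantile normalization 13 ETS factors were measured, 6 lower and 7 higher, with a median of 0.13. Loess centring gave the same counts and a median of 0.12. The medians under these settings thus cover fewer genes than the 15. Past 1.5-fold were Ehf, an epithelial ETS factor, which went from 552.2 to 1189 on a probe set marked for possible cross-hybridisation, and Elf3, which read 283.8 in the control pool and lay under the floor in the other, at least 1.59-fold lower. Etv6 and Fli1 were higher by 0.31 and 0.26.

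Markers of the tissue and of other cells in it differed between the same pools. Cortical projection neuron markers were present in both, 8 measured of the 8 with a probe set, with a median of 0.06 and summed signals of 15507 and 14818, though the glutamate transporter Slc17a7 differed by -0.55. Radial glia markers had a median of 0.01 over 9 of 9 genes, with summed signals of 20191 and 19673. Astrocyte markers had a median of 0.10 over 7 of 7 genes (23404 and 22960), with Gfap higher by 0.59. Meningeal markers were higher in 10 of 10 cases (7797 and 9964), and microglial markers in 7 of 10 (6077 and 6992). Oligodendrocyte markers were lower in 7 of 8 cases (20017 and 16155) and striatal markers in 8 of 8 (12211 and 10323). Smooth muscle and pericyte markers, several of them SRF targets themselves, had a median of -0.04 over 7 of 10 genes (6845 and 7149). Among these 7, Des read 37.0 in the control pool, under the floor, and 257.9 in the GFAP-Cre pool, so it had to be higher. Both readings enter the summed signals. Of the 6 markers measured on both arrays 5 were lower and 1 higher. Endothelial markers had a median of -0.12 over 9 of 10 genes (4761 and 4709), and choroid plexus markers -0.15 over 4 of 6 (13274 and 13446). Blood markers were under the floor in 3 of 3 cases. The part of these differences in the values of the members and their targets was not tested.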

How the data were processed

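The authors deposited 1 linear intensity per probe set and array, made with MAS5 (version not given in the sources used here) per the submitters' processing notes. The 2% trimmed mean was 500.002 on both arrays, so the signals had been scaled to a common level. No column lacked a sample. Probe sets were named through the platform annotation and updated by Entrez identifier (99.4% matched) through a RefSeq table of assembly GRCm38.p6, used for names and gene order only.

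Centring, the floor and the differences were computed with pandas 2.3.3, numpy 2.4.6, scipy 1.17.1 and statsmodels 0.14.6 under Python 3.11.15, drawn with matplotlib 3.10.9, and tested on simulated data. Simulated shifts were placed only in probe sets well above the floor, so the dim range of most members was not covered. A gene's value is that of its brightest measured probe set. The number of arrays, 1 per group, limits the precision, and no test was made. Members and lists were chosen with earlier results of these data known, and 1 list is not reported here. Named genes are all members and, per pathway list, up to 3 with the widest difference measured on both arrays plus any past 1.5-fold, and up to 2 per marker list. Scai, Araf, Hdac1, Med23, Actg1, Lima1, Cnn2, Acta2 as a marker, Des, Arc, Egr2, the under-floor muscle markers and the chromosomal neighbours were named outside that rule, after their values were seen. Alternatives were other scalings, other floors, a pseudocount, the mean over probe sets, and leaving out probe sets with the suffix _x_at or _s_at.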

Additional observations from a re-analysis of the deposited data

How the results depend on the processing

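Of 490 values recomputed under 10 alternative settings, 455 moved by less than the pooled SD between probe sets of a gene (0.18 log2), or for counts by no more than 1.5 times, and 35 moved further. Mrtfa, Mrtfb and Srf stayed lower under each setting that measured them, with ranges of -1.20 to -0.0156, -0.48 to -0.33 and -0.31 to -0.23. Mrtfa was at -0.83, and the median of Mrtfa and Mrtfb at -0.62, with a pseudocount equal to the floor. With the floor at the 75th percentile (595.1) Mrtfa reached it in the control pool alone and so had to be lower. Its -0.0156 is a bound set by the floor, and the median of both genes was at -0.23. That floor left 2 member probe sets measured, 2 lower, 0 higher and 0 at least 1.5-fold lower, and gave no TCF value. It also left 5 TCF-SRF targets, 3 lower and 2 higher, and 7 other ETS factors, 3 lower and 4 higher. With the floor at the 25th percentile 5 member probe sets were higher and 3 at least 1.5-fold lower. With no floor 19 were counted, 13 lower, 6 higher and 4 at least 1.5-fold lower. Probe set 1417662_at of Elk3 was at 0.22 under both settings. Of all 34945 probe sets naming 1 gene, 56.2% were lower with no floor, and under-floor differences had an SD of 0.87. For the floor at the 25th percentile, and for 1.5-fold with no floor, no share over all probe sets was computed. Elk4, and with it the TCF median, was at -0.08 with the mean over probe sets. Of the TCF partners 2 were lower after quantile normalization or loess centring and 3 without probe sets marked for cross-hybridisation. Of the MADS-box factors 1 was lower after quantile normalization, after loess centring, with the floor at the 25th percentile and with no floor, while 2 were lower and 1 higher with the mean over probe sets. The causes were not tested, apart from the fewer or more probe sets that a floor admits. The members' signals, mostly near the floor, limit what can be read from the TCFs. No paired analysis was possible because each group holds 1 array.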

Other observations

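Genes that neighbour the members on the chromosome, 5 protein-coding genes on each side in RefSeq order, were chosen for a look after the Mrtfa reading was known. Around Mrtfa 7 were measured, 2 of them lower, and their differences ran from -0.17 for Xpnpep3, a mitochondrial aminopeptidase, to 0.09 for Adsl, an enzyme of purine synthesis. None came near the -1.20 of Mrtfa. Around Mrtfb 7 were measured, from -0.03 to 0.46, the highest being its next neighbour Parn, a poly(A)-specific ribonuclease, which read 365.8 in the control pool and 504.3 in the GFAP-Cre pool. Around Srf 7 were measured, from -0.09 to 0.14, and around Myocd 6, from -0.06 to 0.16. Around Elk1 5 were measured and 5 were lower, from -0.24 to -0.04, where 47.1% of all measured genes were lower. Among these 5, Araf was at -0.13 on its brightest probe set but had a mean of 0.02 ± 0.12 (SD, 4 probe sets). Around Elk3 4 of 7 were lower, from -0.47 for Snrpf, a core spliceosome protein, to 0.18, and around Elk4 5 of 7, from -0.30 to 0.18. Nuak2, near Elk4, reached the floor in the control pool alone and so had to be lower. Sgsm3, near Mrtfa, and Dnph1, near Srf, reached it in the GFAP-Cre pool alone and so had to be higher. No measured neighbour of any of the 7 members passed 1.5-fold, as 1.14% of all measured genes did.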
